A study of Mus musculus with 15 samples.

Results

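The genes described here encode the proteins of the mitochondrial ribosome. They were taken as the protein-coding rows of the count table whose GENCODE M21 symbol begins with Mrpl or Mrps followed by a digit, which gave 77 of 25292 genes. By their symbols 48 are large subunit genes (Mrpl) and 29 are small subunit genes (Mrps). RNA was sequenced from embryonic pancreata of C57/Bl6J mice in 5 groups of 3 biological replicates. Fresh organs at 14.5 days post coitum (dpc) were wild type (wt) or carried the S1pr2 null genotype, which by the methods of the study is an allele with a Neo cassette in the first exon of the sphingosine-1-phosphate receptor gene S1pr2. The other libraries came from 14.5 dpc dorsal pancreatic buds kept for 2 days at an air-liquid interface in serum-free medium. The control explants had neither agent and, by the methods of the study, solvent where appropriate, the JTE explants were given the S1pr2 antagonist JTE013 at 15 μM, and the JTE + CTGF explants were given 15 μM JTE013 and 50 ng/ml connective tissue growth factor. By the methods of the study, organs or explants of up to 3 embryos were pooled for a library.

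The mitochondrial ribosome translates the small set of mRNAs made inside the organelle, which encode core subunits of the respiratory chain and of ATP synthase. All of its proteins are encoded in the nucleus, made in the cytosol and imported, so a complete ribosome needs many separately transcribed genes. The small subunit binds the mRNA and reads the codons, and the large subunit joins the amino acids. The names do not always give the place in the particle, since the products of Mrps18a and Mrps30 sit in the large subunit of the mammalian mitochondrial ribosome.

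Each library held 11402804 to 13828737 reads assigned to genes, and 16245 genes carried enough reads to be tested, including 76 of the 77 members. As a check of the genotype, S1pr2 itself had normalised counts of 762 to 772 in wt and 1263 to 1458 in the libraries labelled S1pr2 null, which is 0.83 ± 0.07 (SE) higher on the log2 scale (adjusted p = 4.5e-07, edgeR). Its RNA was thus not lower in the libraries labelled null, and which part of the transcript the counted reads cover was not tested, so a total count of this gene neither supports nor contradicts a label that refers to a disrupted exon. JTE replicate 3 stood apart from the other JTE libraries, with a chi-square per gene of 16 and 21.6 against them, where they gave 2.86 with each other, and its Cela1, an acinar elastase, had 2272 normalised counts against 6999 and 7245. All 8 genes listed to check the tissue, among them pancreatic transcription factors, had reads in every group. In whole tissue, fewer cells of a type and less RNA per cell cannot be told apart. The summed level of 12 acinar markers was 6463 to 10940 CPM (reads scaled to a common library total) in wt, 2287 to 2481 in the libraries labelled S1pr2 null, 46960 to 63160 in control explants, 46130 to 83990 in JTE and 85820 to 97790 in JTE + CTGF. In explants the acinar gene Ctrb1 weighs most in this sum, with mean normalised counts of 522100 in control, 637600 in JTE and 883700 in JTE + CTGF. Of the 11 tested acinar markers 1 was called higher and 3 lower in JTE against control. In JTE + CTGF against control 3 were called higher and 2 lower. The summed level of 11 erythroid markers was 1159 to 1351 in wt, 20.02 to 39.4 in control explants and 111.4 to 188.1 in JTE + CTGF, and that of 10 macrophage markers was 354.1 to 383 in control and 103.5 to 121 in JTE. The part of these shifts in the results below was not tested.

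The members lie on 17 chromosomes. A protein-coding gene that starts on the opposite strand within 1000 bases upstream, or overlaps the start by less than 100 bases, was annotated for 19 of 77 members (24.7%). The share was 1586 of 21951 (7.23%) over all annotated protein-coding genes, expressed here or not. A share over tested genes alone was not computed, and 76 of the 77 members were tested. RefSeq start windows on GRCm38.p6 (mm10) were found by symbol for 68 members. Within the 250 bases before the start, 18 of the 68 (26.5%) held the letters CCGGAAG, the core of sites for ETS factors such as GABPA, on either strand, compared with 14.1% of 11656 tested genes and 7.83% of 27025 genes with such windows. The letters GCGCATGC, the core of the site for NRF1, a regulator of nuclear genes for mitochondrial proteins, were held by 7 (10.3%), against 4.62% of tested genes and 2.56% of all. The E-box CACGTG, to which MYC and USF factors bind, was held by 5 (7.35%), against 9.54% of tested genes and 6.86% of all. AAGATGGCG, the core of the YY1 site, was held by 2 (2.94%), against 1.28% of tested genes and 0.71% of all. TGACGTCA, the cyclic AMP response element, was also held by 2 (2.94%), against 2.97% of tested genes and 1.77% of all. No window of a member held TGATGCAA, a site type of ATF4, or ACTACAAT, part of the site of ZNF143 (0 of 68 for each, against 0.652% and 0.978% of tested genes, and 0.918% and 0.762% of all). Both strands were searched and each motif was counted separately, so 1 window can count for several. A match of letters is a description and does not show that a factor binds there.

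The windows of 3 members, 150 bases before the start and free of annotated exons, are shown. They belong to members chosen by the naming rule given with the processing below and hold one of these motifs, which is in capitals. Mrpl52 (chr14:54426759-54426908, plus strand) and Mrpl58 (chr11:115403602-115403751, plus strand) each hold an ETS core, beginning 47 and 17 bases before the start. Mrpl20 (chr4:155802728-155802877, plus strand) holds an E-box that begins 33 bases before the start. RefSeq places this start of Mrpl20 upstream of the gene start in GENCODE M21, so the window may not lie at the start used in these cells. The sequences are from RefSeq and run 5′ to 3′ on the strand of the gene.
Mrpl52: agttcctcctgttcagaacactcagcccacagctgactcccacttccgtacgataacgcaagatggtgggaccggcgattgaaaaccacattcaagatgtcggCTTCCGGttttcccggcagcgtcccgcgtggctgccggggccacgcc
Mrpl58: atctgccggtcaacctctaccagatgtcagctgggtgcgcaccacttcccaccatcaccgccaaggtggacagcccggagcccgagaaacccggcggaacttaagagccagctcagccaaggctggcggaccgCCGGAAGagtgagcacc
Mrpl20: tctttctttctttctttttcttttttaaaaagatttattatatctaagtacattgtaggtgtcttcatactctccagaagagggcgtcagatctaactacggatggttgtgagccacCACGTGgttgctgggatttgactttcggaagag

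Levels were compared between members as RPKM, the reads per kilobase of exon scaled to the effective library size. The median level of the 76 tested members in wt was 23.9, and 51 of them lay within 2-fold of it. Mrpl52, a subunit with no bacterial counterpart, stood highest at 123 ± 4.55 (SD, n = 3), above Mrps16 at 61.4 ± 0.92 and Mrpl12 at 61.0 ± 3.23, which did not differ beyond their spread. Mrps16 and Mrpl12 are counterparts of bacterial ribosomal proteins, and Mrpl12 is also known to bind the mitochondrial RNA polymerase. At the low end stood Mrps10 at 3.21 ± 0.12, Mrpl23 at 1.23 ± 0.31 and Mrps36 at 1.09 ± 0.18, of which Mrpl23 and Mrps36 overlapped in their spread. The exon length of Mrps10 in the annotation is 8079 bases, the longest among the members, and the length enters the level. Mrps36 is known mainly as a subunit of the oxoglutarate dehydrogenase complex rather than of the ribosome. Mrpl53 had normalised counts of 0 to 4.7 in all libraries and was too low to test, and 87.1% of its exon bases are shared with the overlapping gene Gm42688 on the same strand, where reads cannot be assigned to either gene. The ranked levels kept a similar span in the other groups, with medians of 21.6 in the libraries labelled S1pr2 null, 21.5 in control, 20.8 in JTE and 23.1 in JTE + CTGF.

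**Figure D1:**
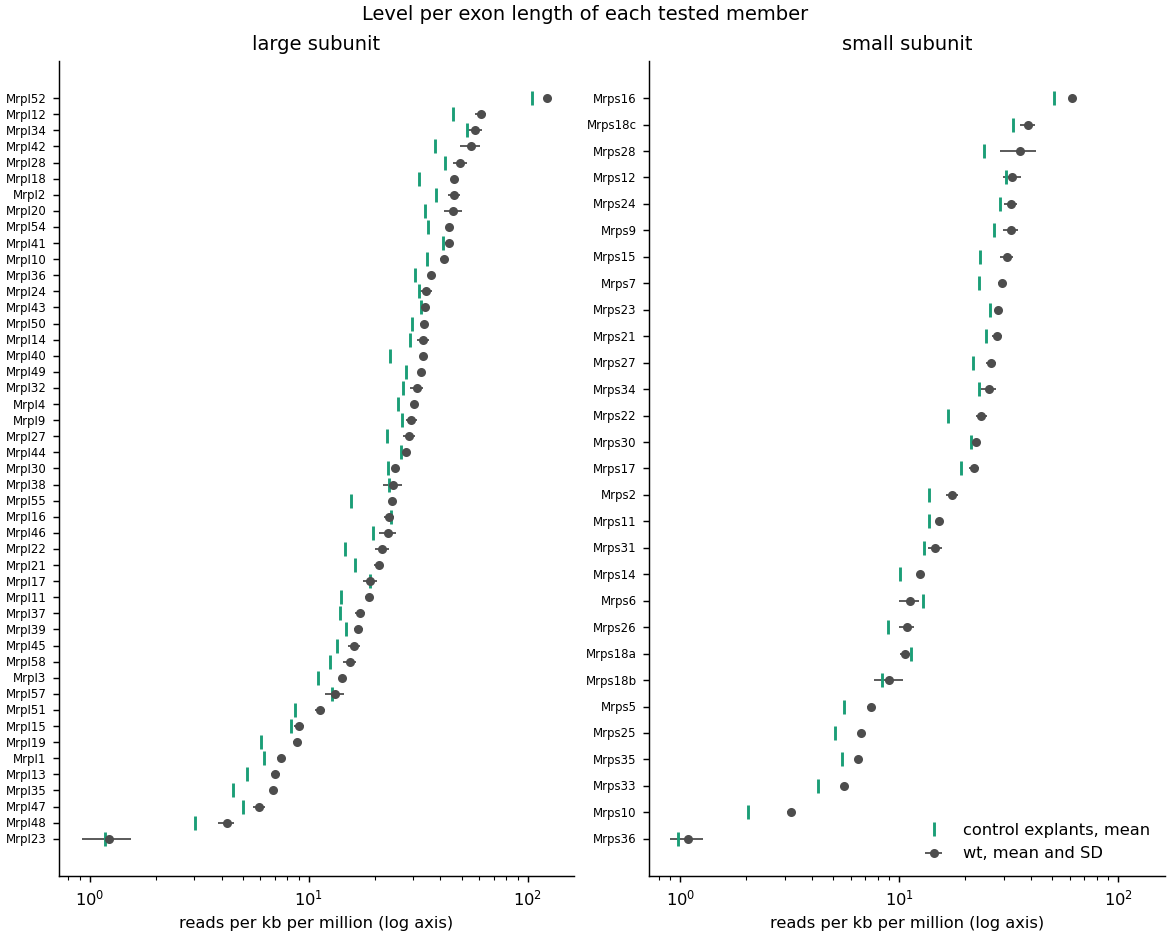
Level of each of the 76 tested members in RPKM (reads per kilobase of exon scaled to the effective library size), on a log axis, for large and small subunit genes. Dots with bars are wt means with SD (n = 3) and green ticks are control explant means, and Mrpl52 lies highest in wt at 123 while Mrps36 and Mrpl23 lie near 1.

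The summed normalised count of the 77 members was 39529, 41037 and 40286 in wt, and 38302, 37289 and 36656 in the libraries labelled S1pr2 null. It was 34624, 33232 and 33334 in control explants, 35590, 35395 and 35333 in JTE, and 38545, 40226 and 42198 in JTE + CTGF. The 3 control libraries were the lowest of the 15, the JTE libraries came next without overlap, and the JTE + CTGF libraries spanned the range of wt. As a share of all reads the members took 0.338% to 0.347% in wt and 0.254% to 0.264% in control explants. Large subunit genes averaged 26785 ± 578 (SD, n = 3) in wt, 22348 ± 613 in control and 26306 ± 1327 in JTE + CTGF. Small subunit genes averaged 13499 ± 181, 11382 ± 174 and 14017 ± 510 in the same groups. Abundant members weigh more than rare ones in such sums.

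**Figure D2:**
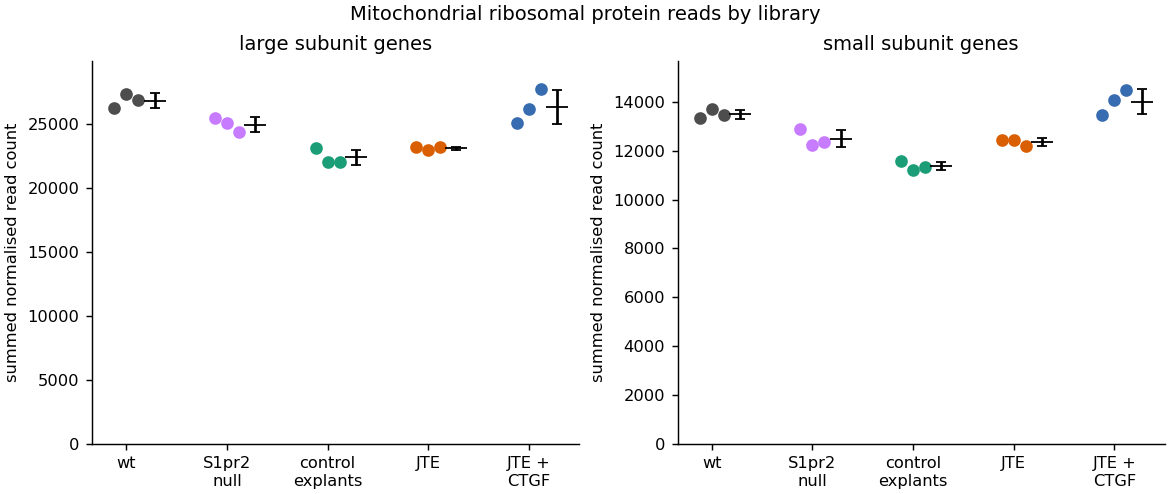
Summed normalised read count of the large (left) and small (right) subunit genes in each library, with coloured points for libraries and black bars for the group mean and SD (n = 3), on axes that start at 0. In both panels the control explants lie lowest, at means of 22348 and 11382, and JTE + CTGF reaches 26306 and 14017.

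Control explants and fresh wt organs show how the genes stood after culture, where stage, culture and dissection change together. Members were lower in culture as a group. Of the 76 tested members 50 fell (65.8%), with log2 fold changes from -0.655 to -0.145, while 29.3% of all 16245 genes tested fell. None rose by edgeR (0 of 76, 0 also at an unadjusted p below 0.05 and 0 by DESeq2), against 28.5% of all genes. The median over the members was -0.25, and -0.02 over all genes. Both subunits took part, with 33 of 47 large subunit genes and 17 of 29 small subunit genes called lower and medians of -0.25 and -0.24. The changes were small in size, since 0 members met the criterion of the study (a fold change below 0.6 or above 1.6 with a mean normalised count over 100 and an adjusted p no higher than 0.1), which 12.1% of all genes met. Only protein-coding genes, 14518 of the 16245 tested, could meet this criterion. Its shares of all genes, here and below, are of all 16245, whereas the members are all protein-coding. Leaving out wt replicate 1 or JTE replicate 3, which shares the estimate of the spread, gave 1 member called higher.

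Mrps10 (chr17:47368887-47381417, plus strand), a small subunit protein with a bacterial counterpart, had normalised counts of 320, 340 and 317 in wt and 198, 159 and 264 in control explants. The log2 fold change was -0.655 ± 0.15 (SE, adjusted p = 0.00103). All 3 control libraries lay below wt, which the naming rule required of the largest falls. Mrpl55 (chr11:59202486-59206134, plus strand), a large subunit protein, had 312, 306 and 314 in wt and 190, 205 and 206 in control. The log2 fold change was -0.63 ± 0.08 (adjusted p = 1.9e-06), and the groups did not overlap, again by the naming rule. Mrpl35 (chr6:71813003-71823810, minus strand), a large subunit protein with a bacterial counterpart, had 320, 312 and 334 in wt and 229, 182 and 217 in control, with a log2 fold change of -0.62 ± 0.11 (adjusted p = 0.000101). Mrpl22, which lines the protein exit tunnel, fell by 0.57 ± 0.10 on the log2 scale (adjusted p = 0.000182), and 22.4% of its 50-base words recur in the processed copy Gm6997. Mrpl12 fell from a mean of 1172 ± 62.1 (SD, n = 3) to 873 ± 64.7, a log2 fold change of -0.425 ± 0.08 (SE, adjusted p = 0.000148). Mrps6 and Mrps18a had positive values of 0.20 and 0.09 that did not pass (adjusted p = 0.0838 and 0.277).

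Fresh pancreata labelled S1pr2 null were compared with wt for the effect of the genotype. Fewer members moved than in culture, and again in 1 direction. Both comparisons use the same wt libraries, so the shared direction is not independent. Of the 76 members 12 fell (15.8%), against 13.3% of all genes, a share near the background. None rose (0 of 76 by edgeR, 0 at an unadjusted p below 0.05 and 0 by DESeq2), against 12.6% of all genes. The median was -0.12, against -0.01 over all genes, and it was -0.12 in each subunit, with 8 large and 4 small subunit genes called. The criterion of the study was met by 0 members and by 3% of all genes. The count rests on single libraries: it was 5 without wt replicate 2, 5 without S1pr2 null replicate 2 and 7 without S1pr2 null replicate 3. In the same comparison the acinar list had 9 and the endocrine list 12 tested genes called lower, and their part in these values was not tested.

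Mrps18b (chr17:35910379-35916389, minus strand), 1 of 3 mammalian genes related to a single bacterial small subunit protein, had 225, 209 and 276 normalised counts in wt and 170, 169 and 190 in the libraries labelled S1pr2 null. The groups did not overlap, and the log2 fold change was -0.42 ± 0.10 (SE, adjusted p = 0.00506). Of its exon bases 30.5% are overlapped on the other strand by Gm16279, and the sources used here do not say if reads were counted by strand. Mrps14 (chr1:160195215-160202170, plus strand), another small subunit protein with a bacterial counterpart, had 529, 502 and 497 in wt and 369, 407 and 420 in the libraries labelled null, at -0.35 ± 0.07 (adjusted p = 0.00181). Mrps12 (chr7:28739641-28741820, minus strand), the counterpart of a bacterial protein at the decoding site, had 392, 469 and 425 in wt and 344, 343 and 323 in the labelled null, at -0.35 ± 0.09 (adjusted p = 0.00806). Its call was lost without wt replicate 2 (adjusted p = 0.0536). Mrpl20 (chr4:155803536-155809776, plus strand), a large subunit protein whose start window is shown above, had 578, 686 and 604 in wt and 521, 499 and 477 in the labelled null, at -0.32 ± 0.08 (adjusted p = 0.00514). In each of these 4 genes every null library lay below every wt library, which the naming rule required and which is no further support. Mrpl24 at -0.165 and Mrps34 at -0.28 were called too, but Mrpl24 lost its call in 15 of 21 alternative settings and 77.8% of the exon bases of Mrps34 are overlapped by Mapk8ip3 and Nme3.

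Explants given JTE013 were compared with control explants for the effect of the antagonist. Here the members split. Of the 76 members 21 rose (27.6%), by 0.17 to 0.46 on the log2 scale, and 7 fell (9.21%), at -0.43 to -0.18. Of all genes 25.9% rose and 26.2% fell, so the share of members that rose was near the background. The median was 0.05, against 0.00 over all genes. Large subunit genes gave 12 higher and 4 lower with a median of 0.03, and small subunit genes 9 higher and 3 lower with a median of 0.09. The criterion of the study was met by 0 members and by 8.25% of all genes. Without JTE replicate 3 there were 20 higher and 4 lower members and a median of 0.04, and without control replicate 3 there were also 4 lower members. All 10 tested macrophage markers and 12 of 13 endocrine markers were called lower in JTE, and their part was not tested.

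Mrps18b had 223, 210 and 224 normalised counts in control and 324, 280 and 300 in JTE, a log2 fold change of 0.46 ± 0.10 (SE, adjusted p = 0.000827). Mrps16 (chr14:20391231-20393555, minus strand) had 375, 358 and 354 in control and 490, 474 and 522 in JTE, at 0.45 ± 0.07 (adjusted p = 4.59e-05). Mrpl57 (chr14:57826239-57828745, plus strand), a large subunit protein found only in mitochondria, had 410, 331 and 371 in control and 470, 510 and 479 in JTE, at 0.39 ± 0.08 (adjusted p = 0.0007). In all 3 genes the JTE libraries lay above the control libraries without overlap, as the naming rule required. Mrps2, a small subunit protein with a bacterial counterpart, rose by 0.39 ± 0.07 (adjusted p = 0.000179), from a mean of 499 ± 39.8 (SD, n = 3) to 652 ± 8.59. Mrpl54 (chr10:81264713-81266934, minus strand), which has no bacterial counterpart, went the other way, with 399, 352 and 344 in control and 277, 271 and 267 in JTE, at -0.43 ± 0.09 (adjusted p = 0.000651). Mrpl11 (chr19:4962306-4966995, plus strand), a protein at the base of the stalk to which translation factors bind, had 546, 493 and 478 in control and 394, 384 and 377 in JTE, at -0.39 ± 0.07 (adjusted p = 0.000278). Mrps6 (chr16:92058270-92112227, plus strand) had 260, 266 and 243 in control and 179, 203 and 220 in JTE, at -0.35 ± 0.10 (adjusted p = 0.00618), and 43.8% of its exon bases are shared with Slc5a3 on the same strand. Mrpl41, which has also been linked to apoptosis, fell from 398 ± 32.7 (SD, n = 3) to 317 ± 23.3, a log2 fold change of -0.33 ± 0.10 (SE, adjusted p = 0.00752). The 21 members that rose had a median exon length of 2089 bases (412 to 6578) and the 7 that fell one of 1590 bases (776 to 2882). The 48 members not called had a median of 1548 bases (645 to 8079), and these differences were not tested.

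**Figure D3:**
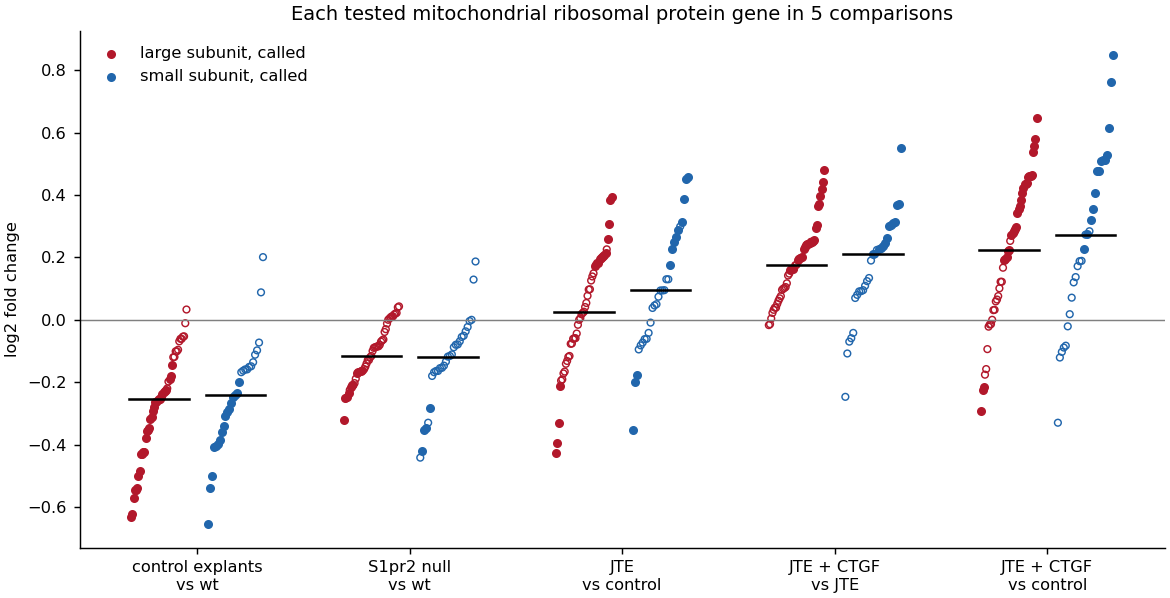
Log2 fold change of each of the 76 tested members in 5 comparisons, with large subunit genes in red and small subunit genes in blue. Filled points passed an adjusted p of 0.05, open points did not, and black lines are the subunit medians. All called points lie below 0 in control explants against wt and in S1pr2 null against wt, both sides of 0 hold called points in JTE against control, and all called points lie above 0 in JTE + CTGF against JTE.

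The addition of CTGF to JTE013 was compared with JTE013 alone. The JTE libraries are those compared with control above, so the 2 comparisons are not independent. Every called member was higher. Of the 76 members 35 rose (46.1%), with log2 fold changes from 0.16 to 0.55, against 13.6% of all genes. None fell (0 by edgeR, 0 at an unadjusted p below 0.05 and 0 by DESeq2), against 16.8% of all genes. The other 41 did not pass, and 7 of the 76 had a negative value. The median was 0.19, against -0.00 over all genes, with 22 of 47 large subunit genes (median 0.18) and 13 of 29 small subunit genes (median 0.21) called. The criterion of the study was met by 0 members and by 1.74% of all genes. Without JTE + CTGF replicate 3, which had the largest summed count of the members, 16 members were called and the median was 0.14. Without JTE replicate 3 the count was 31 and the median 0.20. Without JTE replicate 1 the count was 22, and in a fit of these 6 libraries alone it was 21. Of 11 tested erythroid markers 5 rose in the same comparison, and their part was not tested.

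Mrps10 had 233, 211 and 316 normalised counts in JTE and 368, 363 and 387 in JTE + CTGF, a log2 fold change of 0.55 ± 0.14 (SE, adjusted p = 0.00783). Mrpl14, a large subunit protein with a bacterial counterpart, had 313, 301 and 376 in JTE and 394, 499 and 492 in JTE + CTGF, at 0.48 ± 0.10 (adjusted p = 0.00141). Mrpl28 had 624, 739 and 674 in JTE and 834, 926 and 1013 in JTE + CTGF, at 0.44 ± 0.08 (adjusted p = 0.000592). In these 3 genes the groups did not overlap, as the naming rule required. The narrowest gap was that of Mrpl14, from 376 in JTE to 394 in JTE + CTGF. Mrpl35 rose by 0.42 ± 0.11 (adjusted p = 0.00694) and Mrpl12 by 0.37 ± 0.08 (adjusted p = 0.00163). Mrps6 and Mrpl54 were called higher as well, by 0.37 ± 0.10 (adjusted p = 0.00932) and 0.25 ± 0.09 (adjusted p = 0.0456), but Mrpl54 lost its call in 12 of 21 alternative settings. Both genes were named for their fall in JTE against control, which uses the same JTE libraries. A low value in JTE enters both comparisons, so these rises are not independent of those falls. The values for Mrpl18 and Mrpl41 were -0.01 and 0.04.

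JTE + CTGF against control shares its libraries with both preceding comparisons and adds no independent evidence. Of the 76 members 41 were higher (53.9%) and 3 lower (3.95%), against 28.1% and 33% of all genes, and the median was 0.24 against -0.03 over all genes. The criterion of the study was met by 2 members, both of the small subunit, and by 11.8% of all genes. They were Mrps10 at 0.85 ± 0.15 (SE, adjusted p = 9.4e-05) and Mrps16 at 0.76 ± 0.07 (adjusted p = 9.26e-08). Mrps16 had 567, 613 and 666 in JTE + CTGF, above the 354 to 375 of control and also above the 428 to 441 of wt. Mrpl35 and Mrps24 followed at 0.65 ± 0.11 and 0.62 ± 0.09 (adjusted p = 7.62e-05 and 1.2e-05). The 3 lower members were Mrpl41, Mrpl18 and Mrpl11, at -0.29, -0.23 and -0.22 (adjusted p = 0.0145, 0.00996 and 0.0178). The count of lower members was 1 without JTE + CTGF replicate 1, 5 without JTE + CTGF replicate 3 and 1 in a fit of the 6 libraries alone. Over the 5 groups, the mean of JTE + CTGF was the highest for 37 members and that of wt for 32, while the lowest mean was that of control for 32 and that of JTE for 23.

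**Figure D4:**
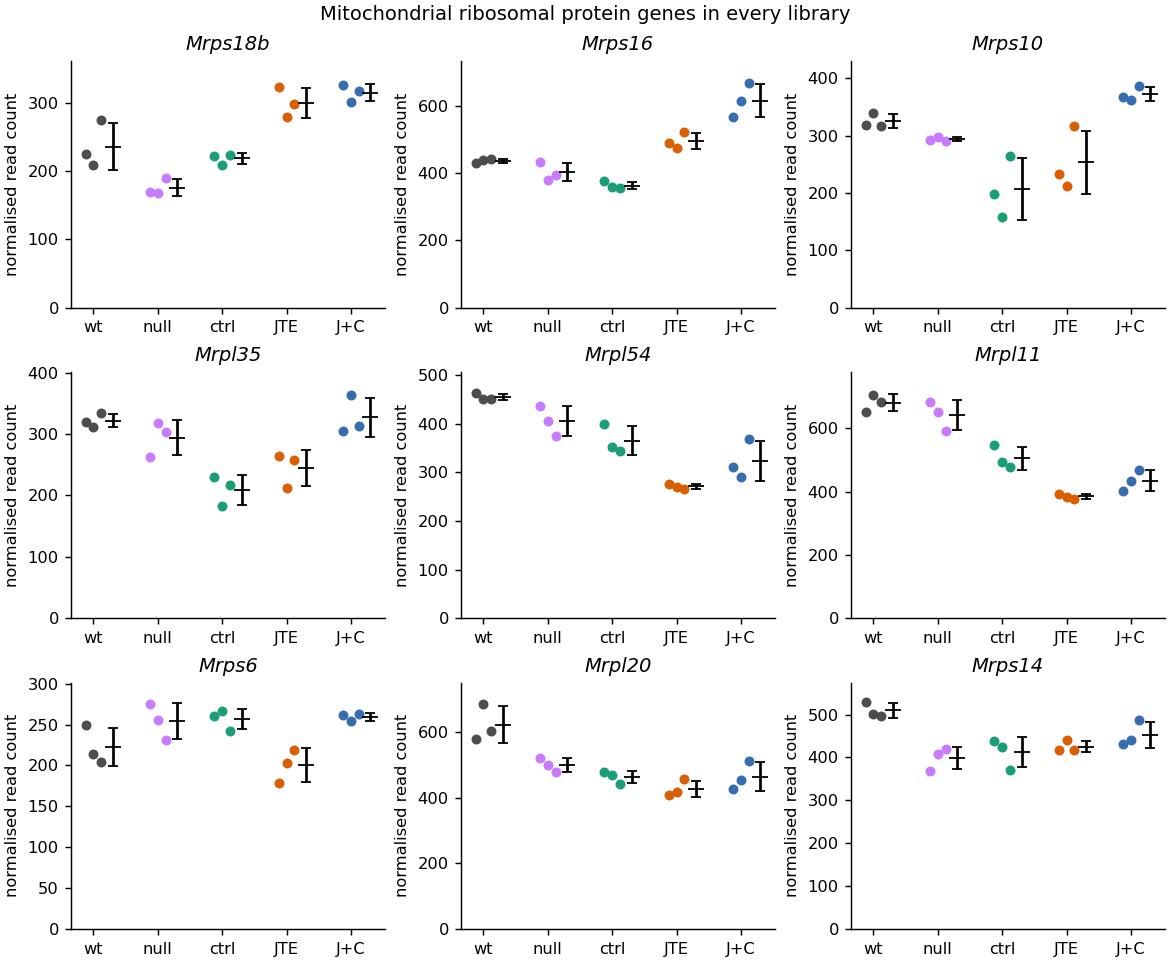
Normalised read count of 9 members in every library, with points for libraries and black bars for group means and SD (n = 3), for wt, S1pr2 null (null), control explants (ctrl), JTE and JTE + CTGF (J+C). Mrps16 climbs from 354 to 375 in control to 567 to 666 in JTE + CTGF, whereas Mrpl54 and Mrpl11 are lowest in JTE.

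The response to JTE013 in explants and the difference between S1pr2 null and wt organs share no library, and the difference between them was tested as an interaction. Of the 76 members 25 had a higher value in the JTE response (32.9%) and 2 a lower one (2.63%), each against 21.5% of all genes in that direction. Without JTE replicate 3 the counts were 24 and 2. The count of lower members was 1 without S1pr2 null replicate 1, 1 without control replicate 1 and 1 when members of uncertain count were left out. Of the 12 members lower in the null, 5 were higher in JTE (41.7% of the 12 and 23.8% of the 21), namely Mrpl15, Mrpl2, Mrpl24, Mrpl38 and Mrps18b, and 0 of the 12 were among the 7 lower in JTE. Over all genes, 26.4% of the 2156 lower in the labelled null were higher in JTE and 35.7% were lower, and with 12 members no difference from these shares was tested. Mrps18b showed the widest difference, 0.88 ± 0.14 (SE, adjusted p = 9.6e-05). Mrpl57 and Mrps16 followed at 0.60 ± 0.12 and 0.57 ± 0.10 (adjusted p = 0.000559 and 0.000209). Mrps6 differed the other way, at -0.54 ± 0.14 (adjusted p = 0.00436). The tissues also differed in age, dissection and culture, which cannot be told apart from the antagonist here.

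**Figure D5:**
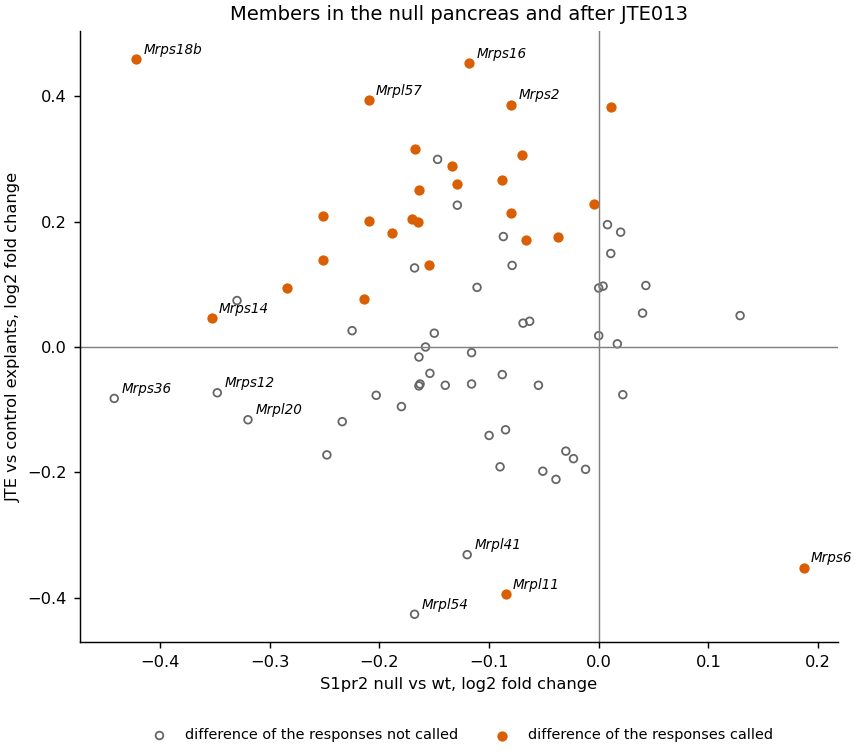
Log2 fold change of each of the 76 tested members in S1pr2 null against wt (horizontal axis) and in JTE against control explants (vertical axis). Orange points passed an adjusted p of 0.05 in the test of the difference between the responses, and Mrps18b stands at -0.42 and 0.46 while Mrps6 stands at 0.19 and -0.35.

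The values of the 3 related genes Mrps18a, Mrps18b and Mrps18c can be set side by side, and differences between the genes were not tested. In JTE + CTGF against control Mrps18a and Mrps18b were both higher, by 0.41 and 0.53, and Mrps18c was at -0.12 (adjusted p = 0.203). Mrps18b fell in the null and rose in JTE, as given above, and its value for CTGF added to JTE was 0.07 (adjusted p = 0.625). Mrps18a had 568, 546 and 559 normalised counts in JTE and 669, 672 and 738 in JTE + CTGF, a rise of 0.31 ± 0.07 (SE, adjusted p = 0.00184), with a value of 0.09 for JTE against control (adjusted p = 0.255). Mrps18c had 456, 438 and 443 in control and 572, 500 and 500 in wt, a log2 fold change of -0.235 ± 0.08 in culture (adjusted p = 0.0156) that was lost without wt replicate 1. Of its 50-base words 22.9% recur at other loci. Among members with a known role outside the ribosome or a place other than their name gives, Mrps30 rose in JTE by 0.29 ± 0.07 (adjusted p = 0.00191) and with CTGF by 0.23 ± 0.07 (adjusted p = 0.0164). Mrpl58, a peptidyl-tRNA hydrolase that frees stalled chains, fell in culture by 0.29 ± 0.08 (adjusted p = 0.00286). Mrps36 had normalised counts of 7 to 20 and passed in no comparison.

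Some members share sequence with other loci, which makes their counts uncertain. Mrpl19, with 36% of its exon bases overlapped by Gcfc2, fell in culture by 0.545, and Mrps25, with 53.7% overlapped by Nr2c2, fell by 0.41. Mrpl27, Mrpl43 and Mrpl47 share 26.9%, 31.6% and 23.3% of their 50-base words with other loci. With the 12 uncertain members left out, 44 members were lower in culture, 9 were lower in the null, 17 were higher and 6 lower in JTE, and 32 were higher with CTGF.

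Genes that start head to head with a member were followed as pairs. In JTE against control both genes of 5 of the 19 pairs were called, 1 pair in the same direction and 4 in opposite directions. Over all 668 head-to-head pairs of tested protein-coding genes both were called in 179 (26.8%), of which 71 (39.7%) went in opposite directions, and the few pairs of members were not tested against these. Mrpl54 lies 26 bases from the start of Apba3, which rose by 0.58 (adjusted p = 4.08e-06) while Mrpl54 fell. Mrps18b lies 45 bases from Ppp1r10, which fell by 0.49 (adjusted p = 9.3e-06), and Mrpl57 lies 49 bases from Ska3, a gene of chromosome segregation, which fell by 0.80 (adjusted p = 1.99e-05). Mrpl41 fell while Pnpla7, 935 bases away, rose by 0.32 (adjusted p = 0.00157). In S1pr2 null against wt both genes of 2 pairs were called, Mrpl36 with Ndufs6 and Mrps12 with Sars2, and all 4 genes fell, while over all pairs both were called in 32 (4.79%), 23 of them in the same direction. In control explants against wt both genes of 9 pairs were called, 4 in the same and 5 in opposite directions, against 225 of all pairs (33.7%) with 151 in the same and 74 in opposite directions. Mrpl49 at -0.23 and Fau, a cytosolic ribosomal protein gene 59 bases away, at 1.91 were the widest apart of these. Fau is not in the list of cytosolic ribosomal protein genes counted below, which was drawn by symbol.

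Proteins of the mitochondrial ribosome whose names lack the Mrp prefix were followed as a list of 5. All 5 fell in culture, against 29.3% of all genes. Ptcd3, a small subunit protein, had normalised counts of 720, 744 and 716 in wt and 475, 522 and 458 in control, a fall of 0.58 ± 0.07 (SE, adjusted p = 1.23e-06). Dap3, a GTP-binding small subunit protein, had 940, 995 and 932 in control, 1147, 1211 and 1135 in JTE, and 1302, 1305 and 1412 in JTE + CTGF. It rose at both steps, by 0.28 ± 0.05 (adjusted p = 0.00014) and 0.20 ± 0.05 (adjusted p = 0.00486), and Aurkaip1 did likewise, by 0.32 ± 0.07 (adjusted p = 0.001) and 0.20 ± 0.07 (adjusted p = 0.0324). Of the list 2 of 5 rose in JTE and 4 of 5 with CTGF, against 25.9% and 13.6% of all genes. Gadd45gip1 was the 1 of 5 that fell in the null, where 13.3% of all genes fell, by 0.21 ± 0.07 (adjusted p = 0.0344).

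Genes that assemble and serve the ribosome gave other counts. Of 26 assembly genes 12 fell (46.2%) and 2 rose (7.69%) in culture, against 29.3% and 28.5% of all genes. In the null 1 fell (3.85%) and 2 rose (7.69%), against 13.3% and 12.6% of all genes. In JTE 14 rose (53.8%) and 2 fell (7.69%), against 25.9% and 26.2%. With CTGF 8 rose (30.8%) and 0 fell (0 also at an unadjusted p below 0.05 by edgeR), against 13.6% and 16.8%. Assembly genes that rose in JTE included Mrm1, an rRNA methyltransferase, from 222, 211 and 221 normalised counts to 359, 402 and 376 (0.80 ± 0.07, adjusted p = 1.43e-07). Mtg1, a GTPase of large subunit assembly, was another (0.63 ± 0.10, adjusted p = 5.03e-05). Malsu1, another large subunit assembly factor, rose with CTGF by 0.52 ± 0.10 (adjusted p = 0.001). A list of 15 genes held mitochondrial translation factors together with Lrpprc, which stabilises mitochondrial mRNAs. In culture 10 of them fell (66.7%) and 1 rose (6.67%), and in the null 1 fell and 1 rose (6.67% each). In JTE 11 rose (73.3%) and 0 fell (0 at an unadjusted p below 0.05 by edgeR). With CTGF 2 rose (13.3%) and 0 fell. The shares over all genes are those given for the assembly genes. The JTE risers included Lrpprc at 0.48 ± 0.06 (adjusted p = 1.91e-06). The median of the 15 genes was 0.27 in JTE, against 0.05 for the 76 members, and the difference between the lists was not tested.

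The members can be set beside larger gene families. Of all genes 29.3% fell and 28.5% rose in culture, and 13.3% fell and 12.6% rose in the null. In JTE 25.9% of all genes rose and 26.2% fell, and with CTGF 13.6% rose and 16.8% fell. Of 81 tested nuclear genes for oxidative phosphorylation subunits 57 fell (70.4%) and 4 rose (4.94%) in culture (median -0.25). In the null 18 fell (22.2%, median -0.13). In JTE 17 rose (21.0%) and 12 fell (14.8%), with a median of 0.04. With CTGF 38 rose (46.9%) and 2 fell (2.47%), with a median of 0.17. Of 84 tested cytosolic ribosomal protein genes 19 fell (22.6%) and 1 rose (1.19%) in culture (median -0.08). In the null 6 fell (7.14%, median -0.08). In JTE 37 rose (44.0%) and 3 fell (3.57%), with a median of 0.23. With CTGF 52 rose (61.9%) and 1 fell (1.19%), with a median of 0.30. The members' medians in the same order were -0.25, -0.12, 0.05 and 0.19. Many cytosolic ribosomal protein genes have processed copies, so their counts are uncertain, and the differences between these lists were not tested.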

How the data were processed

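Poly(A) RNA was sequenced single-end from strand-specific libraries. The authors aligned reads to mm10 with GSNAP and deposited raw read counts of uniquely aligned reads per Ensembl gene, made with featureCounts 1.4.6, and these counts were used as deposited, together with the exon length (a further deposited column). Whether counting used the strand was not stated. Symbols and biotypes came from GENCODE M21, found for 24750 of 25292 IDs. Coordinates are mm10.

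The fit used edgeR 4.0.16 (R 4.3.3) and its quasi-likelihood test on counts (TMM factors, filterByExpr, 1 coefficient per group, all 15 libraries), two-sided, with Benjamini-Hochberg adjustment over 16245 genes. "Called", "rose" and "fell" mean an adjusted p below 0.05. Normalised counts are counts divided by the relative effective library size. The 3 libraries of each group differed by more than sampling noise. Origin from separate litters was not given, so p-values measure the spread between these pooled samples. DESeq2 1.42.0, other scalings, no filter, a replicate block and leaving out each library were alternatives. The fit was tested on simulated counts for JTE against control. It recovered 64 of 100 genes changed by 0.4 on the log2 scale and 94 of 100 changed by 1. It also called 9 unchanged genes. Members with small changes can thus be missed.

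A member's count was held uncertain where over 20% of its exon bases or 50-base words were shared with another locus. Named members were the 4 largest rises and falls per comparison among called members without overlap between groups, those meeting the criterion of the study, the 3 highest and 3 lowest levels in wt, the Mrps18 genes, members with a role outside the ribosome, and uncertain or untested members. Members and lists were chosen with earlier results of these data known. Members named outside the rule were chosen after their values were seen. Genes and sequences not in the tables were not analysed here.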

Additional observations from a re-analysis of the deposited data

Results flagged for a closer look

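The JTE response and the difference between S1pr2 null and wt differed by the interaction test of edgeR for 25 members in the higher and 2 in the lower direction. Among the named members the difference (JTE response minus S1pr2 null response, log2) was 0.88 for Mrps18b, 0.60 for Mrpl57, 0.57 for Mrps16, 0.48 for Mrps24, 0.47 for Mrps2, 0.42 for Mrps30 and 0.40 for Mrps14. It was 0.39 for Mrpl22, 0.39 for Mrpl52, 0.38 for Mrps34, 0.38 for Mrpl47, 0.36 for Mrpl24 and 0.29 for Mrpl43. It was -0.54 for Mrps6 and -0.31 for Mrpl11. The calls of Mrpl22 and Mrpl43 were lost in 14 and 8 of 21 alternative settings. The rule for single outlying values was not applied, since it needs groups of at least 4 libraries.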

How the results depend on the processing

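Counts of called members and medians were recomputed in 406 alternatives, and 380 stayed within 1.5 times the count or within the spread between libraries of the median (0.0417). No median and no named member changed sign. Under the criterion of the study the counts were 0 lower in S1pr2 null against wt, 0 higher and 0 lower in JTE against control, 0 higher in JTE + CTGF against JTE, 2 higher and 0 lower in JTE + CTGF against control, and 0 lower in control explants against wt. In a fit of only the libraries compared, 21 members were higher in JTE + CTGF against JTE and 1 was lower in JTE + CTGF against control. With no filter on low counts the median in JTE + CTGF against control was 0.29. Without members of uncertain count 1 member was lower in the interaction. Leaving out 1 library gave 5 to 16 lower in S1pr2 null against wt, 4 to 7 lower in JTE against control, 16 to 36 higher with a median of 0.14 to 0.23 in JTE + CTGF against JTE, 1 to 5 lower with a median of 0.20 to 0.28 in JTE + CTGF against control, 0 to 1 higher in control explants against wt, and 1 to 2 lower in the interaction. Where a count fell in these settings, the cause was not tested. Of 92 calls of named members 67 held in every alternative. Whether equal replicate numbers mark a shared litter or day is not given. Same-numbered libraries correlated at -0.097 to 0.248 over the comparisons, and replicates 2 and 3 of JTE and control correlated best with their own number but not every library did. A fit with the replicate number as a block gave 11 lower in S1pr2 null against wt, 20 higher and 6 lower in JTE against control, 31 higher in JTE + CTGF against JTE, 41 higher and 3 lower in JTE + CTGF against control, 50 lower in control explants against wt, and 24 higher and 2 lower in the interaction. At this depth members with under 40 reads, such as Mrps36 and Mrpl23, can show only large changes.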

Other observations

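Among regulators of mitochondrial genes and the mRNAs of the organelle itself, some log2 fold changes were larger than any of the members. Ppargc1a, a coactivator of mitochondrial gene programmes, had normalised counts of 42.5, 47.3 and 39.6 in control, 127, 150.1 and 147 in JTE, and 120.1, 95 and 80.5 in JTE + CTGF, a rise of 1.71 ± 0.16 (SE, edgeR adjusted p = 1.31e-07) and then a fall of 0.52 ± 0.14 on the log2 scale (adjusted p = 0.0102). The rise and the fall both use the JTE libraries and are not independent. Ppargc1a fell in S1pr2 null against wt by 0.80 ± 0.18 (adjusted p = 0.00325). Atf4, a factor of the integrated stress response, had 3409, 3488 and 2875 in control and 7628, 7463 and 7328 in JTE, a rise of 1.20 ± 0.07 (adjusted p = 7.24e-10). Of 14 regulators 4 rose (28.6%) and 2 fell (14.3%) in JTE, against 25.9% and 26.2% of all genes, so the share that rose was near the background. In control explants against wt 7 fell (50%) and 2 rose (14.3%), against 29.3% and 28.5% of all genes. Of 10 tested mRNAs encoded in the mitochondrial genome 5 rose and 0 fell in control explants against wt, where 28.5% and 29.3% of all genes did. In JTE 6 rose and 0 fell, against 25.9% and 26.2% of all genes. With CTGF added to JTE 4 rose and 3 fell, against 13.6% and 16.8%. Among the rises in JTE was mt-Co1 at 0.73 ± 0.09 (adjusted p = 4.05e-06) from 37496, 30272 and 30390 to 50114, 53313 and 58766. By contrast mt-Co2 had only 4 to 7.4 normalised counts in control. The means of mt-Atp6 and mt-Co3 in control were 10.4 and 5.17, so the tallies include genes with few reads.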
